A study of Mus musculus with 4 samples.

Results

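The Dlx family, homeobox genes that encode DNA-binding proteins of the jaw and tooth mesenchyme, was followed across 2 tissues of the mouse tooth germ, the dental follicle (DF) and the dental papilla (P), each at stages labelled E17 and PN2. Its members were taken by gene symbol, as Dlx1, Dlx2, Dlx3, Dlx4, Dlx5, Dlx6 and the noncoding Dlx6os1, which makes 7 genes of the 16039 named on the array. They are read by 8 probes, with 1 probe for each coding gene and 2 for Dlx6os1. All 7 were among the 14238 genes whose highest normalised signal over the tissues and stages was 100 or more. A further 2 antisense transcripts whose symbols also begin with Dlx and a digit, Dlx4os and Dlx6os2, are given beside their coding partners and are not counted as members.

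The 4 groups were DF at E17, P at E17, DF at PN2 and P at PN2. The labels name no strain, genotype, treatment or number of animals for any group. The dental follicle is the connective tissue sac around the tooth germ, and the dental papilla is the mesenchyme beneath the enamel organ, from which odontoblasts and pulp form. Per the sample titles, 4 arrays set follicle against papilla, once per stage, and PN2 against E17, once per tissue. Wherever a tissue and stage recurred its signals were identical in all 30146 probes, and P E17 did not recur. Each group thus has 1 set of signals, read here as 1 hybridisation, and no p-value was computed. In the array titled P PN2 over P E17 the second column is headed DF E17 and holds the DF E17 signals, so P E17 came from the array that compares the tissues at E17. The deposited ratio of the mislabelled array matched P PN2 over that P E17 within 0.001 on the log10 scale, apart from a constant. The labels also mention whole embryo and, under growth, ES cell culture, and a tissue entry reads DF PN3 where its title reads DF PN2. The titles were followed.

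Known background helps to place the family. In mammals the coding Dlx genes lie as neighbouring, convergently transcribed couples, Dlx1 with Dlx2, Dlx3 with Dlx4 and Dlx5 with Dlx6, and each couple shares enhancers in the stretch between its genes. Nested Dlx expression patterns the jaw along its length from base to tip, and mice without Dlx1 and Dlx2 lack upper molars. In mice DLX5 and DLX6 specify the lower jaw downstream of endothelin signalling, DLX3 acts in odontoblasts, ameloblasts and hair, and DLX5 also promotes bone formation. Dlx6os1, also called Evf2, is transcribed from the enhancer region between Dlx5 and Dlx6, and its RNA works with DLX proteins to control the neighbouring Dlx genes in mouse forebrain.

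Start-site sequences are shown for Dlx1, Dlx2 and Dlx6os1, because these were the 3 members matched in the promoter table. RefSeq sequences on GRCm38.p6 run from 250 bases before to 50 bases after each start, in the gene's own direction, and Dlx6os1 has 2 starts. Capitals mark TAATT, the core that DLX homeodomains bind, on either strand. The window of Dlx1 lies at chr2:71529195-71529494 on the plus strand and that of Dlx2 at chr2:71546705-71547004 on the minus strand. Those of Dlx6os1 lie on the minus strand at chr6:6869484-6869783 and chr6:6861634-6861933.
Dlx1: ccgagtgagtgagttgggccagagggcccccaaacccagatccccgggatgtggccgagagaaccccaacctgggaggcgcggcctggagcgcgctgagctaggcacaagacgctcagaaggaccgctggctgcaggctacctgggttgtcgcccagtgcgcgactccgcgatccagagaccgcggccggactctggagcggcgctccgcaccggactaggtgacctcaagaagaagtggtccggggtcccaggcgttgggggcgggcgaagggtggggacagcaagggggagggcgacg
Dlx2: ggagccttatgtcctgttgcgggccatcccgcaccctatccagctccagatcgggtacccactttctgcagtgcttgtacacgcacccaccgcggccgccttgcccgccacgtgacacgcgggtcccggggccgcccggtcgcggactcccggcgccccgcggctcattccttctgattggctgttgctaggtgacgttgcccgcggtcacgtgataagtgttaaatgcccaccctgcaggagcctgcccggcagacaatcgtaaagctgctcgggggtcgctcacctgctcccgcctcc
Dlx6os1, first start: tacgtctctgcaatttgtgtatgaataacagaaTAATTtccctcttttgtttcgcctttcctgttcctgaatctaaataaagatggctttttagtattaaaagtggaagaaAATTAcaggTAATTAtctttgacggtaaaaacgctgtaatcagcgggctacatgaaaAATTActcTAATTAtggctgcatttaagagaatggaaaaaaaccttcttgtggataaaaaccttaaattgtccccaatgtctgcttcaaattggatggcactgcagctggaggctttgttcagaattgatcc
Dlx6os1, second start: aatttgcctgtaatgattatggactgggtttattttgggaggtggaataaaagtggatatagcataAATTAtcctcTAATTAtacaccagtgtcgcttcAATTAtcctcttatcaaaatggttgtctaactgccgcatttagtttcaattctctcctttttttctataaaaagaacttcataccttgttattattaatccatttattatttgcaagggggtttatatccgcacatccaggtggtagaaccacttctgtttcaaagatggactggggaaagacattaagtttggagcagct

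The 2 coding starts were rich in G and C, with 69.3% GC in Dlx1 and 66.3% in Dlx2, above 89.5% and 84.4% of the 32851 start-site windows in the table. No TAATT was found in either window. The Dlx6os1 windows had 35.7% and 35.3% GC, above only 4.64% and 3.98% of windows, and held 7 and 4 matches to TAATT. A match was counted on each strand, so the palindrome TAATTA counts as 2 matches. It stood 2 times in the first Dlx6os1 window and 1 time in the second. At least 1 TAATT was present in 27.0% of all windows and at least 1 TAATTA in 5.29%.

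At E17 every Dlx gene had less signal in the follicle than in the papilla, by 5.03-fold to 31.6-fold. All 7 members were past the 2-fold limit named in the labels on the papilla side, where 10.1% of all genes compared were, and 10.5% were past it on the follicle side. The median log2 ratio of DF over P was -3.76, against -0.07 over all genes. The papilla was above the follicle at both stages, by any size, in all 7 members and in 39.8% of all genes. The highest of the 4 levels was in P E17 for 6 members, as in 28.2% of all genes, and in P PN2 for Dlx5, as in 28.7%, while no member was highest in DF E17 or DF PN2, as 19.8% and 23.2% of all genes were. Values are normalised signals, that is, deposited intensities after quantile normalisation across the 4 groups, with log2 means taken where a gene has several probes. The level of a gene can be followed between groups, but levels of different genes cannot be compared, because each probe has its own brightness. In these bulk samples, fewer cells of a type and less RNA per cell cannot be told apart.

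Dlx1, needed with Dlx2 for upper molars, had a normalised signal of 311 in the follicle and 5868 in the papilla at E17, and of 290.5 and 1775 at PN2. The E17 papilla was highest, the PN2 papilla was between, and the follicle values of both stages lay close together at the bottom. Its log2 ratio of DF over P was -4.24 at E17 and -2.61 at PN2. Dlx2, its neighbour on chromosome 2, had 148 in the follicle and 744 in the papilla at E17, then 303 and 319 at PN2. The E17 papilla stood alone, and the tissues lay side by side at PN2, with log2 ratios of -2.33 at E17 and -0.07 at PN2.

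Dlx3, which acts in odontoblasts and ameloblasts, had a normalised signal of 217 in the follicle and 4925 in the papilla at E17, and of 307 and 3548 at PN2. Both papilla values lay far above both follicle values, and the log2 ratio of DF over P was -4.50 at E17 and -3.53 at PN2. Dlx4, its less studied neighbour on chromosome 11, had 122 in the follicle and 1652 in the papilla at E17, then 177 and 1212 at PN2. The order of the 4 groups was that of Dlx3, with log2 ratios of -3.76 and -2.77. Dlx4os, which overlaps Dlx4 in the annotation, had 68.1 and 1133 at E17 and 107 and 1006 at PN2, follicle first. Its log2 ratios of -4.06 at E17 and -3.23 at PN2 differed from those of Dlx4 by less than the spread between probes given below.

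Dlx5, an activator of bone formation, had a normalised signal of 6426 in the follicle and 36438 in the papilla at E17, and of 9852 and 39696 at PN2. Its papilla values of the 2 stages did not differ beyond the spread between probes, and both lay above the follicle values, with log2 ratios of DF over P of -2.50 at E17 and -2.01 at PN2. Dlx6, which acts with Dlx5 in the lower jaw, had 471 in the follicle and 4665 in the papilla at E17, then 511 and 3233 at PN2. The follicle stayed near the same level, and the log2 ratios were -3.31 and -2.66. Dlx6os2, a noncoding transcript that overlaps Dlx6 in the annotation, had 616 and 6928 at E17 and 567 and 5009 at PN2, follicle first, and ratios of -3.49 and -3.14. Where the probes of these overlapping transcripts lie was not examined here, so the transcripts may share signal.

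Dlx6os1, the enhancer transcript shown above, had a normalised signal of 101 in the follicle and 3192 in the papilla at E17, and of 149 and 1588 at PN2, as the mean of its 2 probes. It had the lowest log2 ratio of the family at E17, -4.98, which was rank 4 from the lowest of 14238 genes, and -3.42 at PN2. The brighter probe had 318 and 9669 at E17 and 441 and 3366 at PN2, and the dimmer had 32.2 and 1054, then 50.1 and 749. Both probes put the papilla far above the follicle at both stages. The dimmer probe's signal in DF E17 was under 37.9, which is the 5th percentile over all probes and groups, and against that percentile its log2 ratio at E17 was -4.80, beside -4.93 for the brighter probe.

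**Figure D1:**
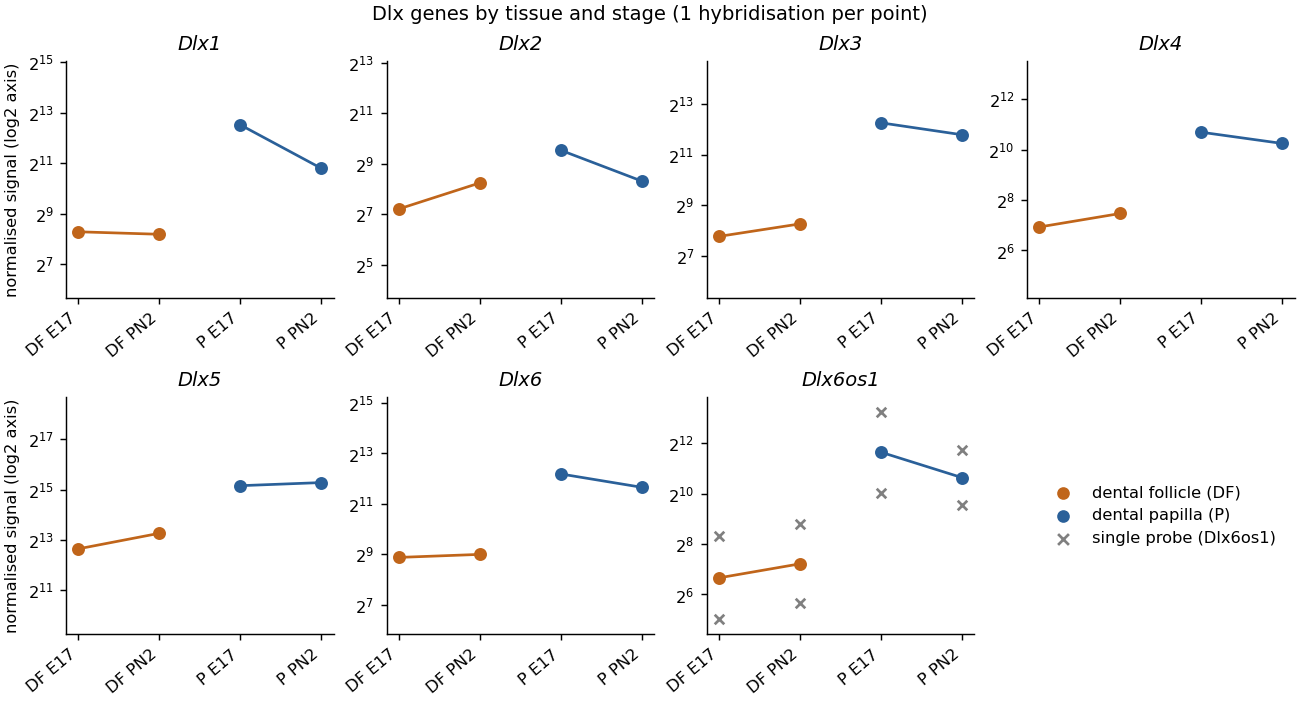
Normalised signal of each Dlx gene (log2 axis, 1 panel per gene) in dental follicle (orange) and dental papilla (blue) at E17 and PN2, with 1 hybridisation per point and the 2 single probes of Dlx6os1 as crosses; every axis spans the same number of doublings, but heights cannot be compared between panels. The papilla points lie above the follicle points in each panel, except that the tissues meet for Dlx2 at PN2 (303 and 319).

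How far probes for 1 gene lay apart gave the only available error. Its SD was 0.58 for the log2 tissue ratio at E17 and 0.77 at PN2, pooled over 6749 genes with several probes. All 7 ratios at E17 were larger than this spread in size. This error covers probes of 1 hybridisation and no variation between animals. Without normalisation the E17 calls over all genes moved to 6.47% higher and 18.9% lower (median of all genes -0.32), and with the deposited ratio table to 12.6% and 8.08% (median 0.13), while the family median lay between -3.90 and -3.30 in all 8 alternatives.

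At PN2 the family remained on the papilla side with smaller ratios, and Dlx2 no longer differed. Lower in the follicle past 2-fold were 6 of 7 members, where 13.4% of all genes were, with a median log2 ratio of -2.66 against -0.07 over all genes. The ratios of these 6 ran from -3.53 for Dlx3 to -2.01 for Dlx5, or 4.03-fold to 11.6-fold. Dlx2 stood at -0.07, and its sign turned to 0.23 without normalisation and to 0.14 in the deposited ratio table. The same 6 members were past 2-fold at both stages, as were 800 of all genes, or 5.62%. No alternative changed the count of 6, although without normalisation the calls over all genes moved from 12.8% higher and 13.4% lower to 19.7% and 11.4% (median of all genes 0.21).

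**Figure D2:**
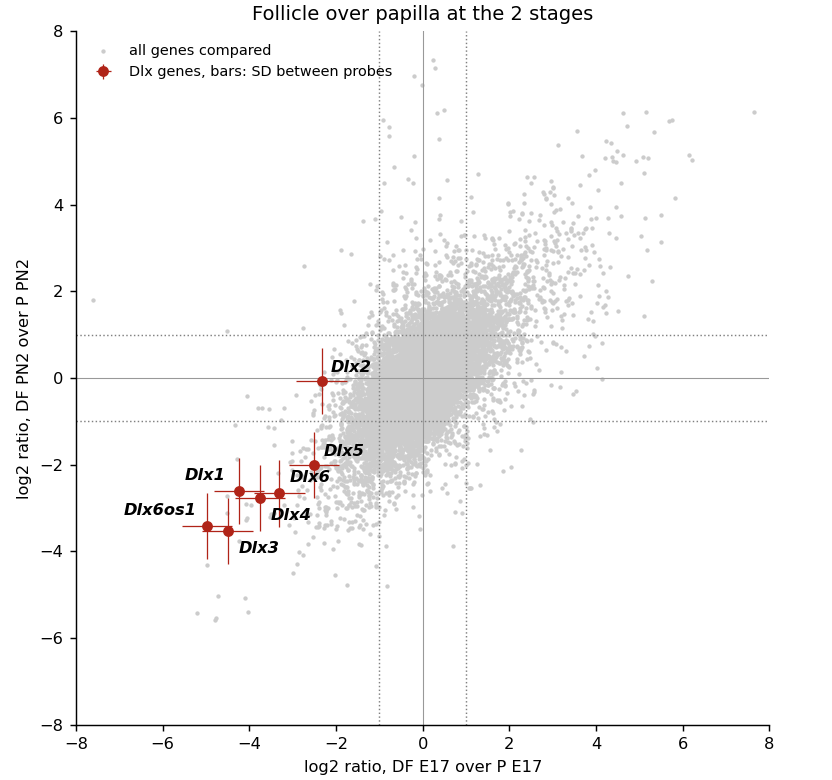
Log2 ratio of follicle over papilla at E17 (x axis) and at PN2 (y axis) for 14238 genes (grey) and the 7 Dlx genes (red, bars showing the SD between probes of 0.58 and 0.77); dotted lines mark 2-fold. All 7 Dlx genes lie to the left of the 2-fold line at E17 and 6 of them below it at PN2, with Dlx2 near 0 on the PN2 axis.

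In the follicle, 5 of 7 members lay above their E17 level at PN2 by more than the spread between probes. Dlx1 and Dlx6 lay inside it, and the count depended on the processing. Dlx2 was higher past 2-fold, with a log2 ratio of PN2 over E17 of 1.03, where 3.83% of all genes were higher and 4.06% lower. Without normalisation its ratio was 0.85 and with a pseudocount of 50 it was 0.83, which left no member past 2-fold. The other members had ratios of 0.62 for Dlx5, 0.56 for Dlx6os1, 0.54 for Dlx4, 0.50 for Dlx3, 0.12 for Dlx6 and -0.10 for Dlx1. The spread between probes was 0.47 in this comparison, and Dlx3 lay just outside it. Without normalisation Dlx3 (0.31), Dlx4 (0.27) and Dlx6os1 (0.21) lay inside it, and with a pseudocount of 50 likewise (0.41, 0.40 and 0.35). The sign of Dlx6 turned without normalisation, to -0.05. The family median was 0.54 against -0.01 over all genes, and without normalisation it was 0.27 against -0.23, where 2.56% of all genes were higher and 9.53% lower.

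In the papilla, Dlx1, Dlx2 and Dlx6os1 were lower at PN2 than at E17, while Dlx5 held its level. Past 2-fold were these 3 of 7 members, where 5.09% of all genes were lower and 6.55% higher. Dlx1 had a log2 ratio of PN2 over E17 of -1.73, a 3.31-fold difference, Dlx2 had -1.22 and Dlx6os1 -1.01. The probes of Dlx6os1 differed here, at -1.52 for the brighter and -0.49 for the dimmer, and its mean was no longer past 2-fold with median centring (-0.87), the deposited ratio table (-0.78) or a pseudocount of 50 (-0.99), which left 2 members past it. Dlx6 (-0.53), Dlx3 (-0.47), Dlx4 (-0.45) and Dlx5 (0.12) lay inside the spread between probes of 0.65.

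This comparison depended most on the scaling. The deposited signals of P PN2 had a median of 205 and those of P E17 a median of 352, so that without normalisation all genes had a median log2 ratio of -0.80, with 35.0% of genes lower and 0.892% higher. The ratios of Dlx1, Dlx2 and Dlx5 were then -2.34, -1.89 and -0.34, and 6 of 7 members were past 2-fold. Relative to the median of all genes, the family median was -0.51 after quantile normalisation and -0.36 without it, with median centring and in the deposited ratio table. The direction held for Dlx1, Dlx2, Dlx3, Dlx4, Dlx6 and Dlx6os1 in every alternative and turned for Dlx5.

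**Figure D3:**
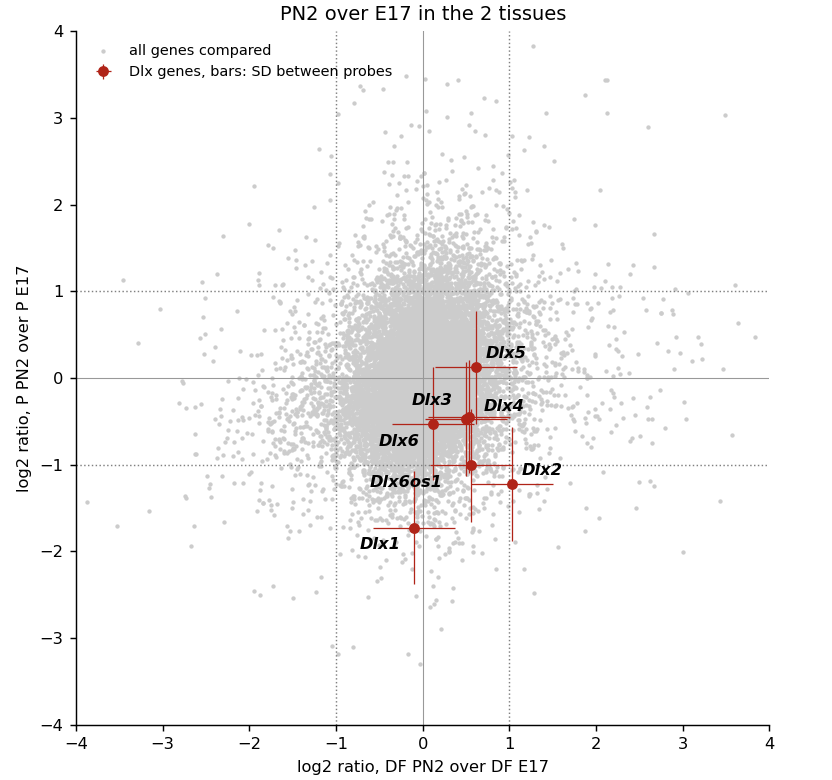
Log2 ratio of PN2 over E17 in the follicle (x axis) and in the papilla (y axis) for all genes compared (grey, with 29 genes beyond 4 in size not shown) and the 7 Dlx genes (red, bars showing the SD between probes of 0.47 and 0.65); dotted lines mark 2-fold. Dlx2 lies beyond both lines at 1.03 and -1.22, Dlx1 is lowest on the papilla axis at -1.73, and Dlx5 lies near 0 on that axis.

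The follicle-papilla difference was smaller at PN2 for every member. On the log2 scale the ratio at PN2 minus the ratio at E17 was 2.26 for Dlx2, 1.63 for Dlx1, 1.56 for Dlx6os1, 0.98 for Dlx4, 0.97 for Dlx3, 0.65 for Dlx6 and 0.49 for Dlx5. Past 2-fold were 3 of 7, where 8.12% of all genes were, and the median was 0.98 against 0.00 over all genes. The follicle lay above and the papilla below its E17 level, by any size, in 5 members and in 21.6% of all genes. All 7 values of the difference stayed above 0 in every alternative, from 0.33 for Dlx5 in the deposited ratio table to 2.74 for Dlx2 without normalisation. The spread between probes was 0.77 for this difference, and Dlx5 and Dlx6 lay inside it. Without normalisation the median of all genes was 0.52, with 23.2% higher and 3.37% lower in place of 8.12% and 9.14%.

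Neighbouring genes were not uniformly the most alike in pattern. Likeness was taken as the Euclidean distance between the log2 signals of 2 genes in the 4 groups, each gene centred on its own mean, so that 0 means the same pattern. Among 21 couples of members the closest were Dlx4 with Dlx6 (0.41) and Dlx3 with Dlx6os1 (0.42), which lie on different chromosomes. Next came the neighbours Dlx3 with Dlx4 (0.75) and Dlx5 with Dlx6 (0.93). Dlx1 with Dlx2, by contrast, ranked 19 of 21 (2.39), as their papilla signals were both lower at PN2 but only Dlx2 met its follicle level. Couples on the same chromosome had a median distance of 1.30 (5 couples) and those on different chromosomes 1.12 (16 couples). No error was computed for these distances, and each coding gene has 1 probe, so small differences between them cannot be read. The probes of Dlx6os1 themselves had papilla ratios of PN2 over E17 of -1.52 and -0.49. The antisense transcripts lay close to the genes they overlap, Dlx6os2 to Dlx6 (0.38) and Dlx4os to Dlx4 (0.43). They lay about as close to genes they do not overlap, Dlx4os to Dlx3 (0.44) and Dlx6os2 to Dlx4 (0.47). Dlx6os1 lay farther from the transcripts it overlaps, at 1.30 from Dlx6 and 1.07 from Dlx6os2.

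Signals known to act upstream of the Dlx genes were mostly on the papilla side too. Of 15 measured genes, 8 were lower in the follicle past 2-fold at E17 and 2 higher, with a median log2 ratio of -1.05, where 10.1% of all genes were lower and 10.5% higher. At PN2 there were 9 lower and 1 higher, with a median of -1.61, where 13.4% of all genes were lower and 12.8% higher. These shares of all genes, and the median of -0.07 at either stage, apply to each tissue comparison of a gene list that follows. At E17 the fibroblast growth factor gene Fgf3 (-4.24) and the bone morphogenetic protein gene Bmp4 (-3.79) were lowest. Edn1, which encodes the endothelin that induces Dlx5 and Dlx6 in the lower jaw, was highest (2.18), followed by the transcription factor gene Mef2c (1.97), which acts in the same pathway. At PN2 Bmp2 (-4.51) and Fgf3 (-3.76) were lowest and Ece1 (1.01), whose enzyme activates endothelin, and Wnt10b (0.73) highest.

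Edn1 itself had a normalised signal of 182 in the follicle and 40.1 in the papilla at E17, and of 35.7 and 27.6 at PN2. Only the E17 follicle stood clear of the other 3, which lay near the 5th percentile of 37.9. Between stages the upstream genes lay both ways. In the follicle 2 of 15 were higher at PN2, Shh (1.87) and Wnt5a (1.16, or 0.84 with low signals raised to the 5th percentile), and 2 were lower, Edn1 (-2.35) and Fgf10 (-1.53), where 3.83% of all genes were higher and 4.06% lower. In the papilla 3 were higher and 1 lower, where 6.55% and 5.09% of all genes were, or 1 and 5 without normalisation, led by Shh (3.27), an epithelial signal of the tooth germ, and Mef2c (1.63). Fgf10 was lower there (-1.76), and Bmp4 followed at -0.66.

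Homeobox and other tooth factors that work beside the Dlx genes were divided between the tissues. Of 17 compared, 8 had lower and 5 higher follicle signal at E17 (median -0.92), and at PN2 5 were lower and 3 higher (median 0.47). Without normalisation the higher count was 3 at E17 and 6 at PN2. Msx2 (-4.51) and Pax9 (-4.29), both needed for tooth development, were lowest at E17, and Osr2 (-2.93) and Msx2 (-2.71) at PN2. Alx4, a craniofacial homeobox gene, was highest at both stages (4.58 and 3.73), with Gsc (2.06), a target of DLX5 and DLX6 in the mouse jaw, next at E17 and Lhx8 (1.29) at PN2. Alx4 had a normalised signal of 974 in the follicle and 40.6 in the papilla at E17, and of 450.2 and 33.9 at PN2, so that both follicle values lay above both papilla values, and P PN2 was under the 5th percentile of 37.9. With low signals raised to that percentile its ratios were 4.33 and 3.23, and that of Gsc at E17 was 1.95. In the follicle Msx2 (2.33) and Osr2 (1.06) had the highest ratios of PN2 over E17 and Alx4 (-1.11) and Pitx1 (-1.02) the lowest. In the papilla Gsc (2.19) and Sp7 (1.51) were highest, and Lhx8 (-2.02) and Twist1 (-1.89) lowest.

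**Figure D4:**
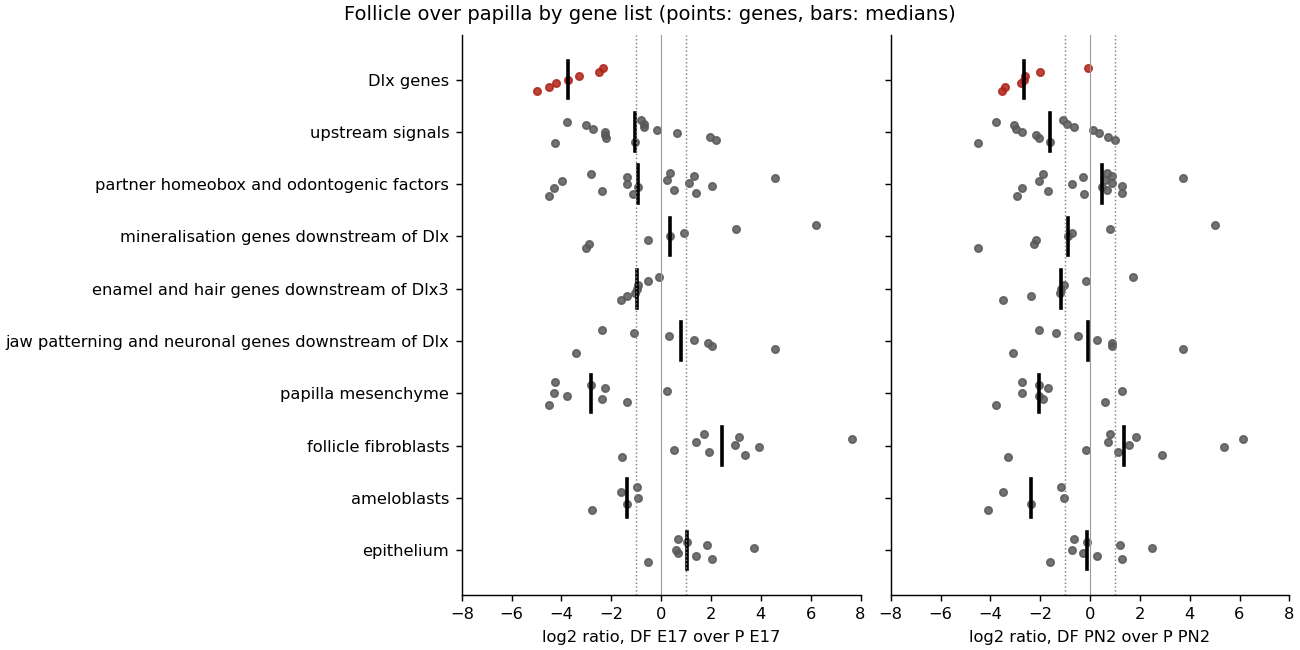
Log2 ratio of follicle over papilla at E17 (left) and PN2 (right), with 1 point per gene, black bars for medians and dotted lines at 2-fold. The Dlx genes (red, medians of -3.76 and -2.66) and the papilla mesenchyme list (-2.83 and -2.03) lie on the papilla side, and the follicle fibroblast list (2.45 and 1.35) on the other.

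Genes reported downstream of DLX proteins were spread over both tissues. Of 7 mineralisation genes, the E17 follicle had 2 higher and 2 lower (median 0.35), and the PN2 follicle 1 higher and 3 lower (median -0.87). The bone sialoprotein gene Ibsp (6.20 at E17, 5.02 at PN2) and Col1a1 (3.01 and 0.80) were highest, and Bmp2 and Smpd3 (-2.89 and -2.24) lowest. Bmp2 had a normalised signal of 1077 in the follicle and 8593 in the papilla at E17, and of 744 and 16904 at PN2. In the papilla 5 of the 7 were higher at PN2, where 6.55% of all genes were, and none lower, with a median of 1.63, led by osteocalcin (Bglap, 2.42) and Col1a1 (2.21). Without normalisation 3 of the 7 were higher and the median was 0.77, against -0.80 over all genes, and all 7 were with the deposited ratio table. Over the same interval no Dlx gene was higher past 2-fold. Col1a1 had the same normalised signal, 51327, in both follicle samples, because it held the same rank in both.

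Enamel and hair genes controlled by DLX3 lay mostly on the papilla side or between the tissues, with Slc24a4 on the follicle side at PN2. Of 7 compared, 3 had lower and 0 higher follicle signal at E17 (median -0.96), or 5 lower without normalisation, and 5 were lower and 1 higher at PN2 (median -1.17). Enam (-1.60) and Ambn (-1.39), which encode enamel matrix proteins, had the lowest values at E17. Enam was under the 5th percentile in DF E17 (26.3), and raised to it its ratio was -1.08, so these 2 genes have no order. Also at E17, Slc24a4 (-0.08) and Trps1 (-0.54) were highest. At PN2 Ambn (-3.48, or -3.27 with its DF PN2 signal raised likewise) and Amelx (-2.39) were lowest and Slc24a4 (1.72) and Trps1 (-0.15) highest. Jaw patterning and neuronal targets were mixed, with 4 of 8 higher and 3 lower at E17 (median 0.81), and 1 higher and 3 lower at PN2, or 3 and 3 without normalisation. Their PN2 median of -0.09 became 0.03 with low signals raised to the 5th percentile. The Wnt inhibitor gene Dkk1 (-3.42 and -3.11) and Lhx6 (-2.36 and -2.07) were lowest at both stages, and Alx4 and Gsc highest.

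Several genes outside the family shared its pattern. Among 13497 other genes, that of Bmp4, whose protein induces Dlx genes in mesenchyme, was closest to the mean of the 7 members, at a distance of 0.23 over the 4 groups. Its normalised signal was 59.8 in the follicle and 826 in the papilla at E17, and 78.3 and 523 at PN2. After it came the kinase gene Stk32a (0.55), Dkk1 (0.56), the calcium channel subunit gene Cacna2d2 (0.59) and Dnajc6 (0.59). The members differed in their nearest genes, and Bmp4 was also among the 3 nearest to Dlx1 (0.84), Dlx4 (0.18) and Dlx6 (0.35).

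For Dlx1 the nearest were Fndc3c1 (0.40) and Pax9 (0.63), and for Dlx2 Tekt1 (0.29), Septin3 (0.31) and Hsbp1l1 (0.40). Dlx3 was nearest to Lratd1 (0.37), Fgf3 (0.42) and Stk32a (0.73), and Dlx6os1 to Fgf3 (0.58), Lratd1 (0.66) and Fndc3c1 (0.78). Dlx4 had Dkk1 (0.34) and Stk32a (0.37) beside Bmp4, and Dlx6 had Twist2 (0.33) and Stk32a (0.43). Dlx5 was closest to Arrb1 (0.12), Cacng7 (0.17) and Tafa1 (0.21). With 4 points a pattern holds little information, and Bmp4, Fgf3, Stk32a, Fndc3c1, Dnajc6, Tekt1, Hsbp1l1, Septin3 and Tafa1 had signals below 100 in 2 or more of the 4 groups. Dnajc6 was under the 5th percentile in DF E17 (17.7) and DF PN2 (20.1). Tafa1 (27.1), Tekt1 (32.8) and Hsbp1l1 (35.2) were under it in DF E17.

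Markers of the tissues mostly went with their labels. The lists were chosen with earlier results of these data known, so they give no independent check of the labels. Of 9 papilla mesenchyme genes, 8 were lower in the follicle at E17 and 7 at PN2, where 1, Lhx8, was higher. Of 10 follicle fibroblast genes, 8 were higher and 1 lower at E17, and 6 were higher and 1 lower at PN2. The summed normalised signal of the papilla list was 5385 in the follicle and 31283 in the papilla at E17, and 5243 and 16598 at PN2. Pax9 alone had 17024.5 in P E17 and 4993.8 in P PN2, so the sums rest largely on 1 bright probe. By median log2 ratio, -2.83 at E17 and -2.03 at PN2, this list, like the Dlx genes, was farther apart at E17. Bmp4, Fgf3 and Pax9 belong to this list and stand among the nearest genes above. All 9 papilla mesenchyme genes also stand in the list of upstream signals or that of partner factors, so their values are repeated here.

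Markers of other cells moved with the tissues, and their part in the Dlx values was not tested. All 10 osteoclast genes and 7 of 8 leukocyte genes were higher in the follicle at both stages. Summed osteoclast signal was 77732 in DF E17 and 86661 in DF PN2, against 4427 in P E17 and 3479 in P PN2, with Atp6v0d2 under the 5th percentile in both papilla samples. Summed leukocyte signal was 32837 and 41625 in the follicle and 3578 and 5351 in the papilla. All 4 Schwann cell genes were higher in the follicle at both stages (medians 3.59 and 4.42), with summed signals of 8265 and 10429 against 946 and 1399. Endothelial genes had 2 of 7 higher at E17, or 0 without normalisation, and 4 at PN2, with summed signals from 1432 in P PN2 to 3024 in DF E17.

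Because Dlx3 is also made by ameloblasts, the enamel organ lists were set beside it. Of 5 ameloblast genes compared, 3 were lower in the follicle at E17, or 5 without normalisation, and 5 at PN2. All but Sp6 also stand in the list of enamel and hair genes above. Their summed signal, over the 6 with a probe, was 733 in the follicle and 2878 in the papilla at E17, and 943 and 10435 at PN2. Odam was under the 5th percentile in DF E17, P E17 and P PN2, Enam in DF E17 and Ambn in DF PN2. Sp6, a transcription factor gene, made up most of the papilla sums, with 2002 at E17 and 9018 at PN2. Without Sp6 the sum of the other 5 was 875 in P E17 and 1417 in P PN2, and Klk4 had 516 and 360. Epithelial genes had 5 of 9 higher in the follicle at E17, or 3 without normalisation, and 3 higher and 1 lower at PN2, with summed signals of 4391 in the follicle and 2174 in the papilla at E17 and 4547 and 4814 at PN2. Cdh1 was under the 5th percentile in P E17 and DF PN2, Cldn1 in P E17 and Krt15 in P PN2.

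The remaining lists were small. Of 4 odontoblast genes compared, all but Nes also among the mineralisation genes above, the E17 follicle had 1 higher and 1 lower. The PN2 follicle had 0 higher and 1 lower. Their summed signals were 52934 in the follicle and 9446 in the papilla at E17 and 54191 and 36324 at PN2. Col1a1 alone had 51327 in both follicle samples, 6362 in P E17 and 29511 in P PN2, so the sums rest largely on it. Smpd3 lay the other way, with 282 in the follicle and 2094 in the papilla at E17, and 780 and 3678 at PN2. Of 4 muscle genes 1 was higher at E17, and 1 was higher and 1 lower at PN2. Summed muscle signal ran from 2985 in DF PN2 to 7468 in P PN2, where Myod1 alone had 2552 and 7166, so the sums rest largely on it. Actn3 was the gene higher in the follicle (3.05 and 1.79), and Myog and Tnnt3 were not past 2-fold at either stage. Ckm was under the 5th percentile in DF E17, P E17 and P PN2 and Actn3 in both papilla samples. Of the markers of GABAergic neurons, the forebrain cells that depend on Dlx genes, only Npy passed the signal minimum, at log2 ratios of DF over P of 0.17 at E17 and 3.18 at PN2. The E17 medians of the muscle and neuron lists turned sign without normalisation.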

How the data were processed

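Signals came from 4 Agilent arrays of mouse dental follicle and papilla, labelled as 2-colour. Agilent Feature Extraction 8.5.1.1 is the reader named in the submitters' processing notes. The deposited signal intensity values are linear and per probe, with 2 columns an array named for tissue and stage, per the file headers. Whether the authors subtracted background is not stated in the sources at hand. A separate deposited table holds log10 ratios, which matched the ratios of these intensities after 1 constant was added for each array (as log2, 0.46, -0.09, 0.32 and 0.87 in the order DF over P at E17, DF over P at PN2, follicle stages, papilla stages) within 0.001 for at least 99.99% of probes. The labels give Cy5 to the tissue and stage named first and Cy3 to the other. DF E17 is named first against P E17 and second against DF PN2, yet its signals were identical in both. The same holds for P PN2, named first against P E17 and second against DF PN2. The dyes named therefore do not describe every column.

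From these values, intensities were turned to log2 without a pseudocount and quantile normalised over the 4 columns in Python 3.11.15 (numpy 2.4.6, pandas 2.3.3). Of 30146 probes, 25962 had 1 gene symbol in the platform table and 4184 had none, and the latter were left out of gene values. Probes of a gene were averaged, genes whose highest normalised signal was at least 100 were kept, and a gene was counted past a log2 ratio of 1 in size. With 1 hybridisation per tissue and stage, no test was run, and the number of arrays limits the precision. The steps were tested on simulated data. The 16 gene lists came from general knowledge, with 2 members named each way per comparison, and some genes stand in several lists. For likeness, 3 nearest genes were named per member and 5 for the mean, without clone and predicted names. The members and lists were chosen with earlier results of these data known. The 8 alternatives were no normalisation, median centring, the deposited ratio table, the brightest probe, the median over probes, low signals raised to the 5th percentile, a pseudocount of 50 and no filter.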

Additional observations from a re-analysis of the deposited data

Results flagged for a closer look

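For 5 of 7 members the signal at PN2 was above that at E17 in the follicle and below it in the papilla, as for 21.6% of all genes. With 1 hybridisation per tissue and stage the difference was not tested. The log2 ratio of PN2 over E17 in the follicle minus that in the papilla was 2.26 for Dlx2 (1.03 and -1.22), 1.56 for Dlx6os1 (0.56 and -1.01), 0.98 for Dlx4 (0.54 and -0.45), 0.97 for Dlx3 (0.50 and -0.47) and 0.65 for Dlx6 (0.12 and -0.53). The follicle and the papilla were both past 2-fold in Dlx2. For Dlx6 the follicle value turned to -0.05 without normalisation, which removes the opposition. The papilla values of Dlx3, Dlx4 and Dlx6 lay inside the spread between probes of 0.65, and the follicle value of Dlx6 inside that of 0.47. Opposite signs are beyond that spread in Dlx2 and, with the values above, in Dlx6os1, and not in the other 3. The follicle value of Dlx6os1 fell inside it without normalisation (0.21) and with a pseudocount of 50 (0.35). It did so too with low signals raised to the 5th percentile (0.44) and with median centring (0.45). The dimmer Dlx6os1 probe had -0.49 in the papilla, inside the spread.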

How the results depend on the processing

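Of 280 values, 7 members in 5 comparisons under 8 alternatives, 278 moved by less than the spread between probes. The others were Dlx2 between papilla stages without normalisation (-1.89) and Dlx6os1 between tissues at E17 with a pseudocount of 50 (-4.22). Part of the 280 could not move, because no filter and the median over probes leave every member value as it was. The brightest probe and low signals raised to the 5th percentile changed only Dlx6os1. No normalisation, median centring and the deposited ratio table differ from each other only by a constant per comparison, so they are not independent checks. Across all 280, no value past 2-fold changed sign. The counts past 2-fold between tissues were the same in all alternatives, 7 at E17 and 6 at PN2. Between stages the follicle count went from 1 to 0 without normalisation and with a pseudocount of 50. The papilla count went from 3 to 2 with median centring, the deposited ratio table and the pseudocount of 50. Without normalisation it went from 3 to 6 and that of the difference between stages from 3 to 6. The highest level was in P E17 for 6 members, and for 7 without normalisation, a tally added after seeing the data. No paired analysis was possible because each tissue and stage has 1 hybridisation. Signals near the 5th percentile, such as the dimmer Dlx6os1 probe in the follicle, limit how low a level can be read. The deposited ratio table gives no levels and was not used for the order of levels.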
